A study of Homo sapiens with 8 samples.

Results

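The genes described here encode 10 basic leucine zipper (bZIP) transcription factors, most of which act at AP-1 sites or cAMP response elements. They are *FOS*, *FOSB*, *FOSL2*, *JUN*, *JUNB*, *JUND*, *ATF3*, *CREM*, *CREB1* and *NFIL3*. They are 10 of 19974 protein-coding genes. An ATAC-seq peak was counted at a gene when its summit lay inside the gene, or within 100 kb of its ends and nearer to it than to any other protein-coding gene. By that rule the 10 genes held 40 of the 51388 vehicle peaks assigned to a gene, and 48 of 59937 regions once overlapping peaks of all lists were merged. ATAC-seq marks open chromatin by where the transposase Tn5 can insert. The cells were NCI-H295R, an established human adrenocortical carcinoma line, and there were 4 groups of 2 libraries. The vehicle group had DMSO for 96 h. The EZH2i group had the EZH2 inhibitor EPZ-6438 at 62 µM for 96 h. The CBPi group had PRI-724, a CBP inhibitor, at 26 µM for 96 h, and the labels call both of these IC-50 doses. The FSK group had vehicle for 48 h and then forskolin at 10 µM for 48 h, so its exposure was shorter than that of the inhibitor groups. One peak list combines the 2 libraries of each group, so no value below has a spread between replicates, and no difference between lists could be tested.

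Fos proteins (FOS, FOSB, FOSL2) pair with Jun proteins (JUN, JUNB, JUND) to form AP-1, which binds the sequence TGANTCA. CREB1 and CREM bind the cAMP response element (CRE), TGACGTCA, and CREB1 phosphorylated by protein kinase A recruits the coactivators CBP and p300. In adrenocortical cells the hormone ACTH raises cAMP, and forskolin does so directly by activating adenylyl cyclase. FOS, JUNB, ATF3, NFIL3 and the short CREM product ICER, which is made from an internal promoter, are classical immediate or early response genes. EZH2 is the methyltransferase of Polycomb complex PRC2, and PRI-724 blocks the binding of CBP to β-catenin.

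The CRE core TGACG, or its complement CGTCA, lay in the promoter window of 8 of the 10 genes, including all 6 AP-1 genes. The window runs from 250 bases before to 50 after each start listed by RefSeq (GRCh38.p14). By window, 10 of the genes' 18 windows held the core (55.6%), against 24.5% of all 34943 such windows. Windows of 1 gene can overlap, so they are not separate draws. A gene with more windows has more chances of a match. The share of all genes with a match was not computed, so the 8 of 10 has no background. The sequences below show each core, or whole CRE, with 16 bases either side, 5′ to 3′ on the gene's strand, with the core or the whole CRE in capitals. They are shown because every one of them lay inside a peak in all 4 lists.
FOS, chr14:75278748-75278784, + strand: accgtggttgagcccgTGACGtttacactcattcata
FOSB, chr19:45467920-45467956, + strand: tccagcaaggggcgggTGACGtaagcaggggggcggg
FOSL2, chr2:28392641-28392677, + strand: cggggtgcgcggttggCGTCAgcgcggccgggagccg
FOSL2, chr2:28392776-28392812, + strand: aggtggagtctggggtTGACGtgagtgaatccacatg
JUN, chr1:58784150-58784186, - strand: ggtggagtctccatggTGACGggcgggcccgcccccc
JUNB, chr19:12791333-12791369, + strand: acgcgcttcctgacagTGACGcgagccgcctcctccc
JUND, chr19:18281799-18281838, - strand: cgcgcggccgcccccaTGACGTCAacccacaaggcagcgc
JUND, chr19:18281688-18281724, - strand: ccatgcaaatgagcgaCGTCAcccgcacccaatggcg
CREM, chr10:35127033-35127069, + strand: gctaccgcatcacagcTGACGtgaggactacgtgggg
CREM, chr10:35127143-35127179, + strand: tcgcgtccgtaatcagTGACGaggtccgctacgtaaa
CREM, chr10:35195836-35195875, + strand: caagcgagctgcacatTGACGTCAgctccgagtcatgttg
NFIL3, chr9:91424621-91424657, - strand: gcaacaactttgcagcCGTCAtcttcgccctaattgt

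The whole CRE was in 3 of the 18 windows, of 2 genes, against 1.84% of all windows. In *JUND* it began 200 bases before the start, and the peak summit was 77, 77, 77 and 81 bases from it in the vehicle, EZH2i, CBPi and FSK lists. In *CREM* it began at base 3 of an internal start at chr10:35195850. The overlapping window of the start at chr10:35195902 held the same CRE, so that site is counted in both windows. Of the other motifs, the AP-1 site TGANTCA was in 1 of the 18 windows (*FOSL2*, 5.56%) against 7.72% of all windows. The SF1 site AAGGTCA, bound by the adrenal regulator NR5A1, was in 3 windows, of *ATF3* and *CREM*, against 3.92%. The *CREM* windows with it overlap and share the same site. The NFIL3 site TTACGTAA and the CArG box, bound by serum response factor, were in none, against 0.126% and 1.3%. Both strands were searched, and each whole CRE also counts as a core. A match is a description of these letters only.

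The 250 bases before the start are given in full for *FOS* and *FOSB*, whose start regions differed most in area rank between lists among the Fos genes. The CRE core is in capitals, 64 bases before the *FOS* start and 60 before the *FOSB* start.
FOS, chr14:75278578-75278827, + strand: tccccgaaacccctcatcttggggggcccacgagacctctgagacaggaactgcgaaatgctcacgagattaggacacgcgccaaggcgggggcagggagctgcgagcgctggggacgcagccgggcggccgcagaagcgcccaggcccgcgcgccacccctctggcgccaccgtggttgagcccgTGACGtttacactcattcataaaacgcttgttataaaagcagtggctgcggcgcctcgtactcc
FOSB, chr19:45467746-45467995, + strand: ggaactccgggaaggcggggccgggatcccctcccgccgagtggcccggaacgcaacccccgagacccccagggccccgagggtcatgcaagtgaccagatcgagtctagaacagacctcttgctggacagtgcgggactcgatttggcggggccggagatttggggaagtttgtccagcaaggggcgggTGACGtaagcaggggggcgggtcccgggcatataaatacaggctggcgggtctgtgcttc

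Of the 10 genes, 9 had a vehicle peak within 1 kb of a listed start, and all 9 had one in each treated list as well. Among 11205 genes with a vehicle start peak, 3.3% had none with EZH2i, 1.64% with CBPi and 3.61% with FSK, so a count of 0 in 9 is near the background. A gene counts as kept while any start peak remains, and *CREM* did lose start peaks, as given below. The start peaks were large. The median of the 9 had a greater area than 92.8% of the peaks in the vehicle list, 92.2% with EZH2i, 93.3% with CBPi and 93.1% with FSK, against medians of 87.5%, 82.3%, 84.7% and 85.2% for all genes with a start peak. Area here is the deposited area of significance under a peak, and it was compared only as a rank within a list, because the depth of the libraries is unknown. *ATF3*, a stress-induced CREB/ATF family member, was the exception by listed starts: no list held a peak within 1 kb of either of them. Its peak of largest area, 43.1 kb into the gene, had its summit 6524 bases before the downstream listed start. Whether that peak marks a start that is not listed was not tested, so *ATF3* cannot be called closed at its promoter.

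**Figure D1:**
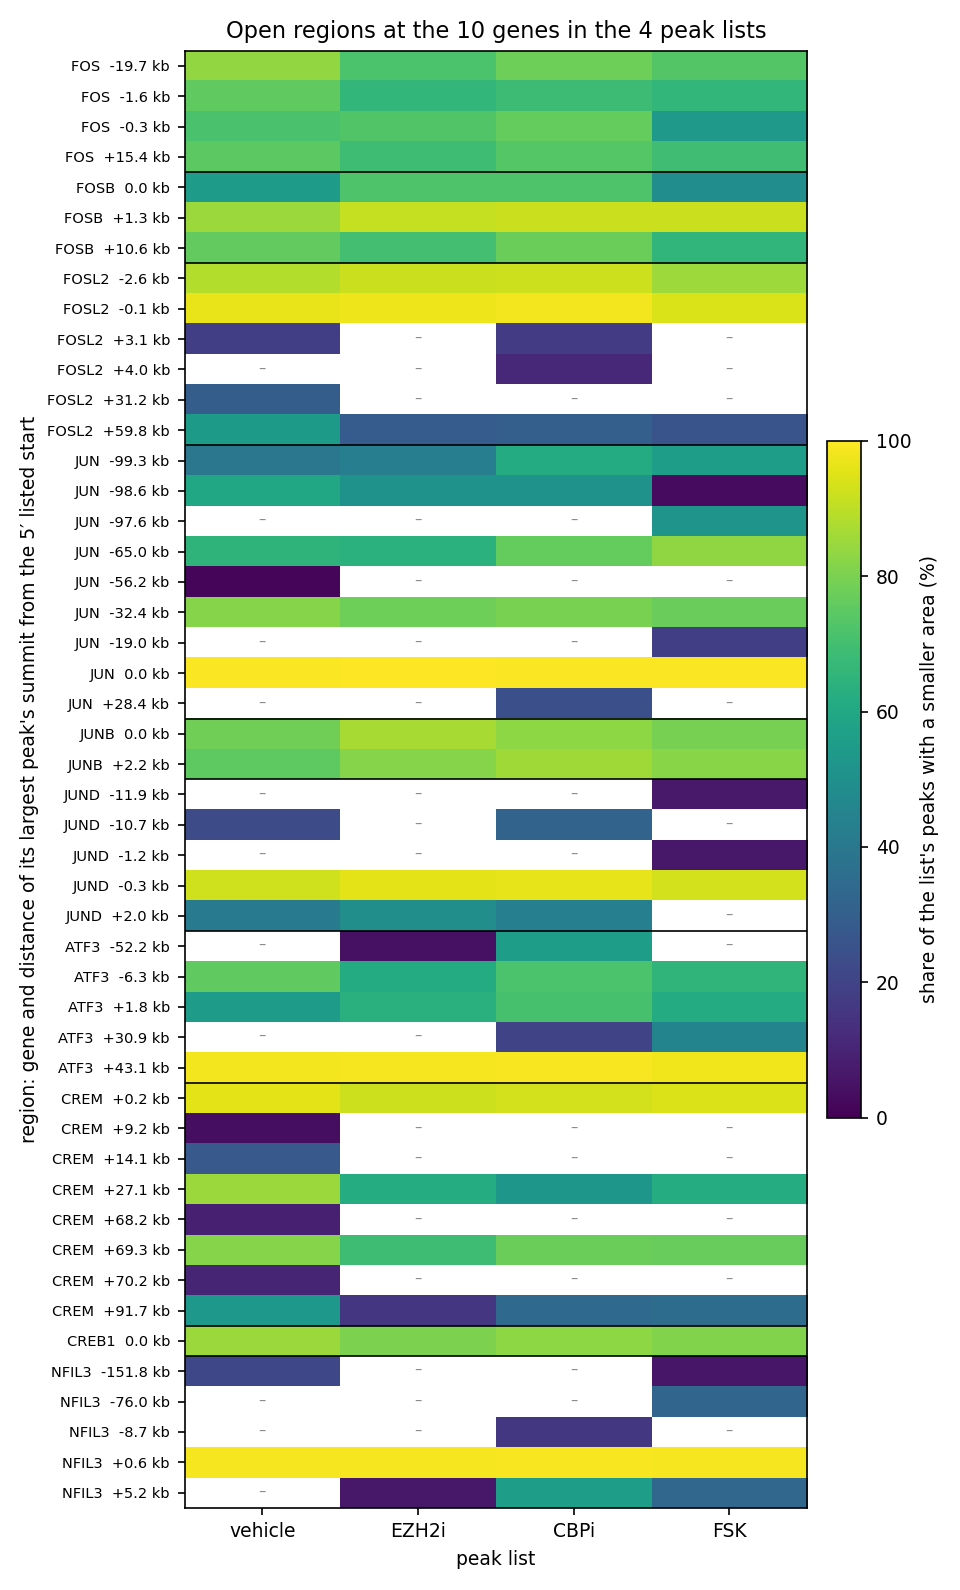
Area percentile (colour, share of the same list's peaks with a smaller area, in percent) of the 48 regions at the 10 genes in the 4 peak lists, 1 row a region, labelled with the distance in kb of its largest peak's summit from the gene's 5′ listed start; a dash on white means that the list holds no peak there. Regions held by 1 list reach at most 51.6, with a median of 13.7. Most regions that hold a 5′ listed start are bright, the exceptions being *FOS* with FSK (54.0) and *FOSB* with vehicle (55.0) and FSK (49.1).

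Peaks came and went at these genes at shares near the background, and mostly small ones. The EZH2i list kept 30 of the 40 vehicle peaks and lost 10 (25%, Wilson 95% interval 14.2 to 40.2), while 35.2% of all assigned vehicle peaks were lost. The CBPi list lost 8 (20%, 10.5 to 34.8) against 26.3%, and the FSK list lost 11 (27.5%, 16.1 to 42.8) against 29.1%. Peaks gained were 2 of 29 with EZH2i (6.9%, 1.91 to 22) against 6.5%, 6 of 36 with CBPi (16.7%, 7.87 to 31.9) against 10.9%, and 7 of 39 with FSK (17.9%, 8.98 to 32.7) against 14.5%. Every one of these 6 intervals holds the background share. A kept peak shares at least 1 bp with a peak of the other list. The intervals reflect counting error alone, with each peak taken as a separate draw.

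**Figure D2:**
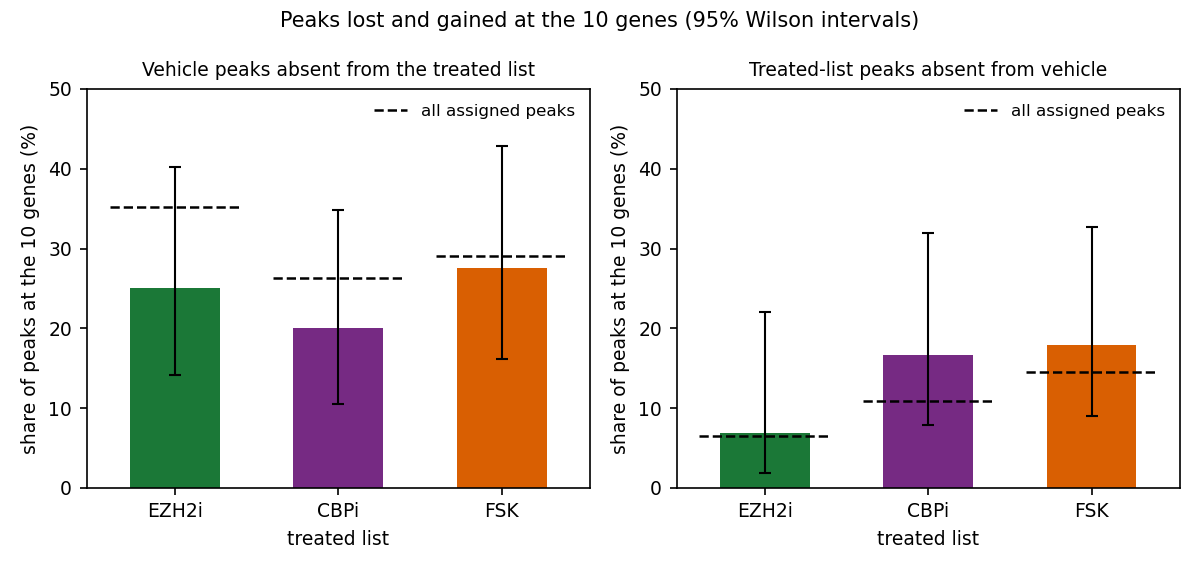
Share (%) of the 40 vehicle peaks at the 10 genes that were lost from each treated list (left) and of the treated list's peaks that were gained (right); bars are the 10 genes, whiskers are 95% Wilson intervals, and dashed lines are all assigned peaks. Each dashed line falls within the whisker of its bar, for example 35.2% lost with EZH2i against an interval of 14.2 to 40.2.

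By region, 27 of 48 (56.2%) were held by all 4 lists, against 47% of all regions. The vehicle list alone held 6 regions (12.5%, background 14%) and the FSK list alone held 5 (10.4%, background 6.76%). Of the 6 vehicle-only regions, 4 were in *CREM*, which held 8 of the 48 regions. The 5 regions found with FSK alone were at *JUN* (2), *JUND* (2) and *NFIL3* (1). The 3 found with CBPi alone (6.25%, background 4.02%) were at *FOSL2*, *JUN* and *NFIL3*. The EZH2i list alone held 0 of the 48, against 1.48% of all regions, so a count of 0 is near the background. The 14 regions in a single list had area percentiles of 1.6 to 51.6 (median 13.7), while those in all 4 lists reached 99.7 (median 76.9). The smallest area was 200 in each list, and a region under it does not appear.

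To compare lists on one footing, each of the 28183 regions held by all 4 lists was given an area rank, the share of those same regions with a smaller area in that list. Of the 27 such regions at the 10 genes, 20 ranked higher with EZH2i than with vehicle (background 50.1% of all common regions), 21 with CBPi (background 50%) and 11 with FSK (background 48.4%). The median change was 6.7 percentage points with EZH2i, 4.1 with CBPi and −0.8 with FSK, beside 0.0, 0.0 and −0.2 over all common regions. Of the 9 regions that hold a 5′ listed start, 8 ranked higher with EZH2i, 8 with CBPi and 4 with FSK, beside 51.5%, 57.1% and 44.9% of 9828 common regions with a listed start. The start regions of the 6 AP-1 genes all ranked higher with EZH2i, by a median of 14.1 points, and all with CBPi, by 12.2. With FSK, 3 of the 6 ranked higher (median 1.5 points). Over all 9 start regions the median change was 3.3 points with EZH2i, 4.1 with CBPi and −0.1 with FSK. Over the 9828 common regions with a listed start it was 0.1, 0.7 and −0.3 points. Ranked by the summed area of a region's peaks, 20, 21 and 8 of the 27 regions were higher with EZH2i, CBPi and FSK (background 49.9%, 50.3% and 47.7%), and 6, 6 and 3 of the 6 AP-1 start regions (background of start regions 50.8%, 57.5% and 43.4%). Ranked by summed width, 15, 20 and 14 of the 27 were higher, against 53.1%, 49.8% and 53.3%, so by width the EZH2i count (55.6%) was near the background. By width 5, 5 and 3 of the 6 AP-1 start regions were higher, against 50.9%, 48.8% and 51.6%. These rank comparisons among common regions, by area as well as by width, were added after the data were seen. The direction can differ by area percentile within the whole list. There the *CREB1* start peak, for example, went from 85.1 with vehicle to 80.3 with EZH2i. By that measure the 5′ start peak ranked higher at 6, 7 and 2 of the 9 genes with EZH2i, CBPi and FSK. Over all genes with the peak in both lists the shares were 8.46%, 28.8% and 18.8%. The 3 treated lists are all set against the 1 vehicle list, so their changes share that list and are not independent of each other.

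**Figure D3:**
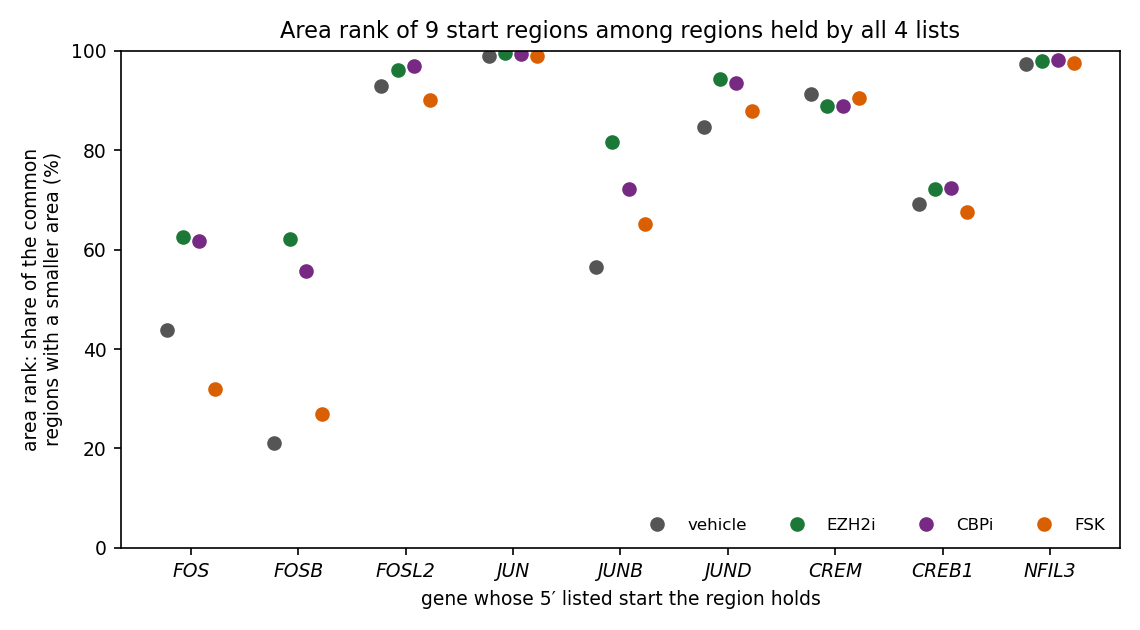
Area rank (%) of the 9 regions that hold a gene's 5′ listed start among the 28183 regions held by all 4 lists; each point is 1 gene in 1 list, with no replicate spread. *FOS*, *FOSB*, *JUNB* and *JUND* have their EZH2i and CBPi points above the vehicle point, while *JUN* and *NFIL3* lie above 97% in all lists.

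The peak over the *FOS* start (chr14:75278828, plus strand) was 1020 bp wide with vehicle, 1508 bp with EZH2i, 1520 bp with CBPi and 737 bp with FSK. It was thus widest with the inhibitors and narrowest with forskolin. Its area rank was likewise highest with the inhibitors and lowest with forskolin, at 43.9% with vehicle, 62.5% with EZH2i, 61.8% with CBPi and 32.0% with FSK. The CRE core printed above was 54, 87, 250 and 87 bases from the summit in those lists. The other *FOS* regions moved less. The one 1.6 kb upstream ranked 51.0% with vehicle and 53.8%, 50.1% and 46.2% with EZH2i, CBPi and FSK. The one 19.7 kb upstream (chr14:75258667-75259758) ranked 66.6% with vehicle and lower in each treated list, at 60.9%, 64.1% and 56.0%. All 4 *FOS* peaks were kept in every list and none was gained.

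*FOSB*, which encodes a Fos protein that accumulates with repeated stimulation in its truncated form, had its start peak in pieces in the vehicle and FSK lists. The peak over the start (chr19:45467996, plus strand) was 641 bp wide with vehicle, 1258 bp with EZH2i, 1260 bp with CBPi and 709 bp with FSK. In the inhibitor lists 1 peak spanned the stretch that 2 peaks covered in the other lists. The region ranked 21.1% with vehicle, 62.1% with EZH2i, 55.7% with CBPi and 27.0% with FSK by its largest peak. When the areas of its peaks were summed, the vehicle rank was 34.3% and the others were 61.5%, 55.3% and 50.2%. The inhibitor lists stayed highest, but the difference from vehicle fell from 41.0 to 27.2 points with EZH2i and from 34.6 to 21.0 with CBPi, and that with FSK grew from 5.9 to 15.9. The region 1.3 kb into the gene ranked 68.5% with vehicle and 87.6%, 86.9% and 85.7% with EZH2i, CBPi and FSK, higher in all treated lists.

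*FOSL2*, which encodes the Fos family member FRA-2, had a start peak (chr2:28392858, plus strand) that was 2222 bp wide with vehicle, 2320 bp with EZH2i, 2358 bp with CBPi and 1664 bp with FSK. In the FSK list a second peak of 435 bp lay just downstream of it. The region ranked 92.9%, 96.2%, 97.0% and 90.1% in those lists, so the inhibitors and forskolin stood on either side of vehicle. A region 2.6 kb upstream ranked 75.5% with vehicle, 88.2% with EZH2i, 87.3% with CBPi and 74.7% with FSK. The vehicle peak 31.2 kb downstream of the start (chr2:28423769-28424149), past the gene's end, was in no treated list. A region in the gene at chr2:28396776-28397060 was in the CBPi list alone, at an area percentile of 11.3.

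**Figure D4:**
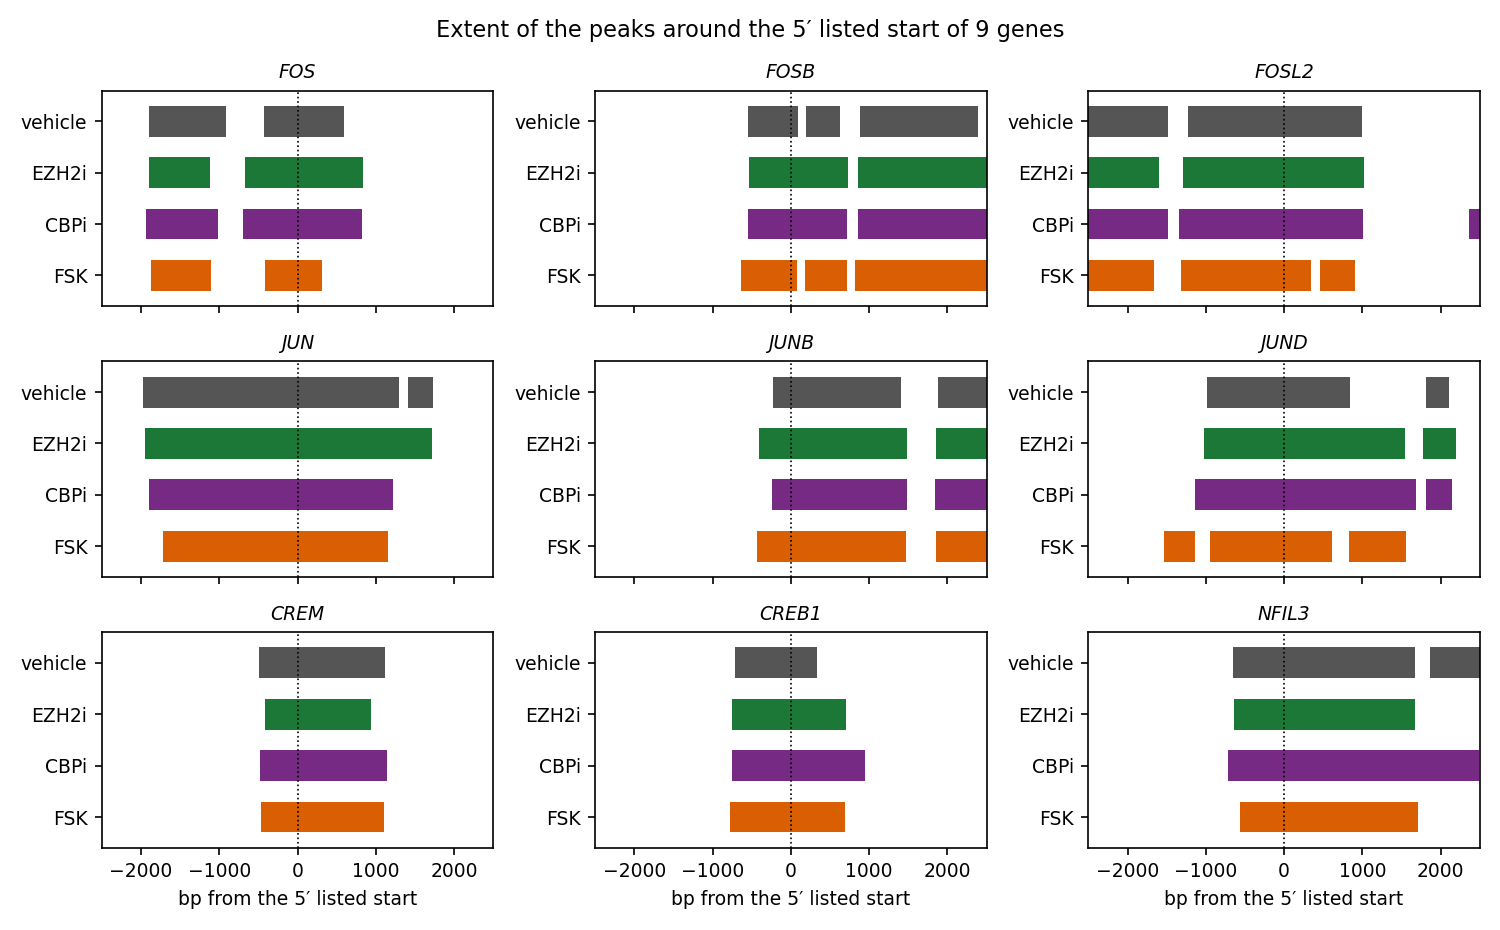
Extent in bp of the peaks within 2500 bp of the 5′ listed start (dotted line) of the 9 genes with a start peak, drawn in the direction of transcription, 1 track a list; peaks that reach past the frame are clipped. The *FOS* peak runs from 737 bp (FSK) to 1520 bp (CBPi), and *FOSB* has 2 short peaks at its start with vehicle and FSK where the inhibitor lists have 1.

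*JUN* had the start peak of largest area of the 10 genes in every list. It was 3262 bp wide with vehicle, 3664 bp with EZH2i, 3127 bp with CBPi and 2881 bp with FSK, and its region (start at chr1:58784047, minus strand) ranked 99.0%, 99.5%, 99.4% and 98.9%. At that height a rank has little room to move. The regions far upstream of *JUN* differed more. The one 65.0 kb upstream ranked 34.1% with vehicle, 51.3% with EZH2i, 61.7% with CBPi and 71.2% with FSK, the largest FSK change (37.1 points) among the 27 regions. Its peak was 544 bp wide with vehicle and 783 bp with FSK (chr1:58848784-58849566). The regions near 99 kb upstream did not move as one. The region 98.6 kb upstream ranked 26.5% with vehicle, 36.8% with EZH2i, 27.3% with CBPi and 0.6% with FSK, while its neighbour 99.2 kb upstream ranked 8.3%, 28.5%, 40.4% and 33.9%. Just beside them, 97.6 kb upstream, a peak of 472 bp appeared in the FSK list alone, at an area percentile of 51.6 (chr1:58881368-58881839). A further FSK-only peak of 385 bp lay 19.0 kb upstream, at a percentile of 18.6. These regions are close to the 100 kb limit of the rule, and those just past it, 115120 and 119782 bp from *JUN* in the vehicle list, were held by all 4 lists.

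*JUNB*, a Jun protein with weaker transactivation than JUN, lies against *HOOK2*, and its start peak had its summit 10 bp upstream of the start, inside *HOOK2*, with vehicle. The summit was also outside *JUNB* with EZH2i and CBPi (16 and 19 bp upstream) and was 11 bp inside it with FSK. The rule therefore counts this peak at *JUNB* in the FSK list only, although all 4 lists hold it. It was 1632 bp wide with vehicle, 1883 bp with EZH2i, 1728 bp with CBPi and 1906 bp with FSK. The region ranked 56.4%, 81.6%, 72.1% and 65.2%, higher in every treated list. The region 2.2 kb downstream of the start, past the gene's end, did likewise at 50.4%, 74.5%, 76.4% and 69.4%.

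*JUND*, the Jun gene usually expressed without stimulation, had a start peak (chr19:18281622, minus strand) of 1825 bp with vehicle, 2573 bp with EZH2i, 2820 bp with CBPi and 1563 bp with FSK. The region ranked 84.7%, 94.3%, 93.5% and 87.8%, the last being 91.4% with the areas of its FSK peaks summed. With the inhibitors the peak ran on into the gene, over a stretch that was a separate peak of 735 bp with FSK. The FSK list held 2 small *JUND* peaks found in no other list, 1.2 kb upstream (407 bp, area percentile 6.3) and 11.9 kb upstream (412 bp, percentile 7.0). The first of them begins 1 bp past the end of the CBPi start peak. The vehicle peak 10.7 kb upstream of the start was absent with EZH2i and FSK, and that 1.9 kb downstream was absent with FSK.

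Over the 9 genes with a start peak, that peak was wider than with vehicle at 7 with EZH2i, 8 with CBPi and 3 with FSK. The shares over all genes with the peak in both lists were 23%, 51% and 30.4%. The median ratio of treated to vehicle width was 1.15 with EZH2i, 1.37 with CBPi and 0.971 with FSK at the 9 genes, and 0.912, 1 and 0.94 over all genes. With EZH2i, *CREM* (0.846) and *NFIL3* (0.988) were below 1, and with CBPi *JUN* (0.959) was.

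*CREB1*, the constitutive CRE-binding activator, had 1 region, at its start (chr2:207529962, plus strand), in all 4 lists. The peak was 1049 bp wide with vehicle, 1447 bp with EZH2i, 1699 bp with CBPi and 1467 bp with FSK, and thus narrowest with vehicle. Its region ranked 69.1%, 72.2%, 72.3% and 67.5%. Neither a CRE nor its core was found in its promoter window.

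*CREM*, which encodes CRE-binding activators and, from its internal promoter, the repressor ICER, had the most vehicle peaks of the 10 genes. Its 5′ start peak (start at chr10:35126846, plus strand) was 1604 bp wide with vehicle, 1357 bp with EZH2i, 1633 bp with CBPi and 1564 bp with FSK. The region ranked 91.3% with vehicle and lower in each treated list, at 88.8%, 88.9% and 90.5%. The same 4 of its 8 vehicle peaks were missing from all 3 treated lists, and none was gained. Over all assigned vehicle peaks, 35.2% were lost with EZH2i, 26.3% with CBPi and 29.1% with FSK, and 14% of all regions were vehicle-only. The 4 lost *CREM* peaks were 221 to 380 bp wide with area percentiles of 3.6 to 28.0. They include the only start peaks lost at any of the 10 genes, at chr10:35194987-35195207, over an internal start at chr10:35195133, and at chr10:35196889-35197161. Of the 14 vehicle start peaks assigned to the 10 genes, 12 were kept in each treated list (85.7%, Wilson interval 60.1 to 96). Over all assigned vehicle start peaks, 93.4% were kept with EZH2i, 96.9% with CBPi and 93.4% with FSK. The interval holds the EZH2i and FSK shares, and the CBPi share lies just above it. Between those lost start peaks, the peak over the internal start that carries the whole CRE was in all lists. It was 939 bp wide with vehicle, 637 bp with EZH2i, 925 bp with CBPi and 646 bp with FSK, and its region ranked 62.9%, 57.3%, 63.7% and 60.7%.

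The region 27.1 kb into *CREM* ranked 68.9% with vehicle, 49.1% with EZH2i, 29.8% with CBPi and 40.6% with FSK, by its largest peak the furthest below vehicle of the 27 regions with each treatment. A single vehicle peak of 1259 bp there (chr10:35153000-35154258) was 2 peaks with CBPi and with FSK. With areas summed the ranks were 68.5%, 48.6%, 42.7% and 60.1%, and the differences from vehicle were −19.9, −25.7 and −8.4 points, against −19.8, −39.1 and −28.3 by the largest peak. The region 91.7 kb downstream of the start, past the gene's end, also ranked lower in each treated list, at 19.1% with vehicle and 7.5%, 12.6% and 15.5% with EZH2i, CBPi and FSK. Without *CREM*, the share of vehicle peaks kept at the other 9 genes was 81.2% with EZH2i, 87.5% with CBPi and 78.1% with FSK.

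**Figure D5:**
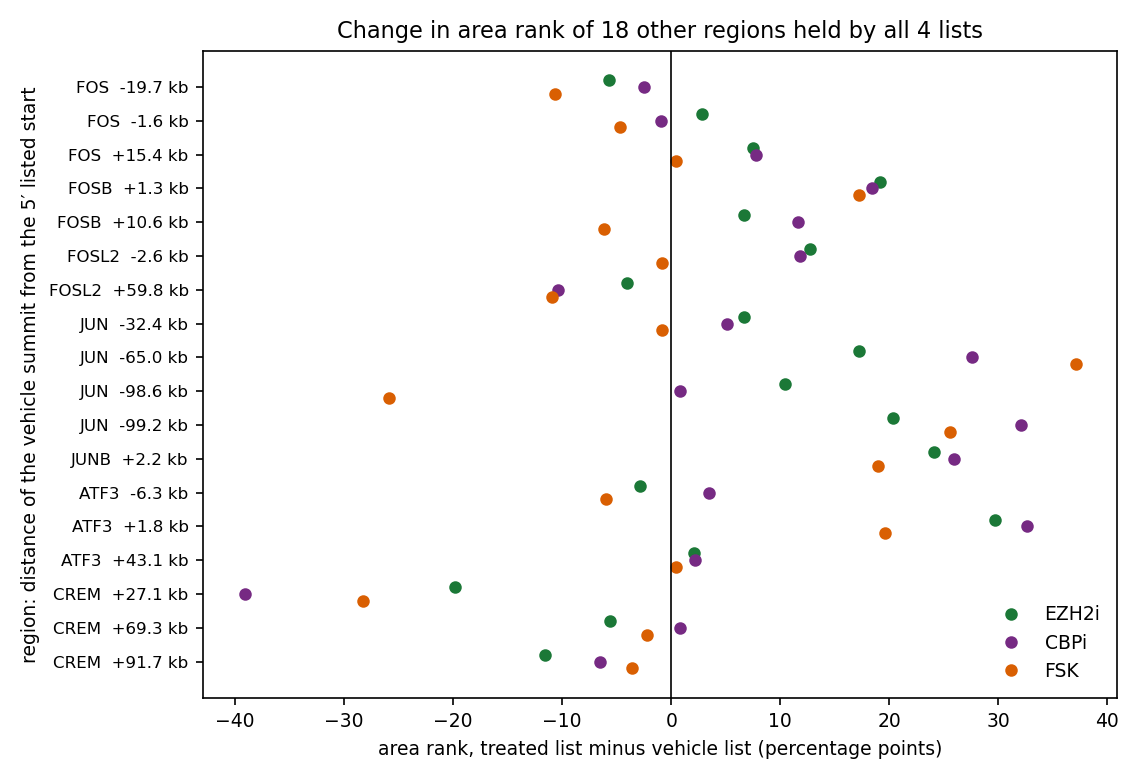
Change in area rank (percentage points, treated list minus vehicle list) of the 18 regions held by all 4 lists that hold no 5′ listed start, each labelled with the distance in kb of its vehicle summit from that start; points are single lists. The *CREM* region 27.1 kb downstream lies furthest left (−39.1 with CBPi) and the *JUN* region 65.0 kb upstream furthest right (37.1 with FSK).

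*ATF3* had its largest peak 43.1 kb into the gene (chr1:212607683-212609939, 2257 bp with vehicle), and that region ranked 96.0%, 98.1%, 98.2% and 96.4% in the vehicle, EZH2i, CBPi and FSK lists. All 4 of its vehicle peaks were kept in every list. The region nearest to its 5′ listed start, 1.8 kb downstream, held 2 vehicle peaks and 1 peak in each treated list. It ranked 20.8% with vehicle and 50.5%, 53.4% and 40.4% with EZH2i, CBPi and FSK by its largest peak, but 43.7%, 50.0%, 53.1% and 39.6% with areas summed, so the FSK difference turned from 19.6 to −4.1 points. Peaks absent with vehicle appeared 52.2 kb upstream with EZH2i and CBPi (444 and 640 bp wide) and 30.9 kb into the gene with FSK and, overlapping it, with CBPi (656 and 438 bp).

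*NFIL3*, a bZIP repressor also known as E4BP4, had one of the largest start peaks (start at chr9:91424626, minus strand), 2336 bp wide with vehicle, 2307 bp with EZH2i, 3208 bp with CBPi and 2269 bp with FSK. Its region ranked 97.3%, 97.9%, 98.2% and 97.6%. It held the one region of the 48 that was absent with vehicle and present in all 3 treated lists, 5.2 kb into the gene (2.08% of the 48, against 0.944% of all regions, so 1 region is near the background). The peak there was 250 bp wide with EZH2i, 752 bp with CBPi (chr9:91419220-91419971) and 280 bp with FSK, at area percentiles of 6.5, 55.8 and 33.1. The vehicle peak 2.4 kb downstream of the start was absent with EZH2i and FSK, and with CBPi the start peak ran over it. A CBPi-only peak of 209 bp lay 8.7 kb upstream of the 5′ listed start, at a percentile of 16.2. It was still inside the annotated gene, which runs past that start. An FSK-only peak of 328 bp lay 76.0 kb upstream, outside the gene, at a percentile of 32.7. The vehicle peak 151.8 kb upstream was absent with EZH2i and CBPi and kept with FSK, at percentiles of 21.5 with vehicle and 6.0 with FSK.

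The wider pathway was read from 5 lists of 56 other genes: relatives of AP-1, the CREB family with its coactivators, other bZIP factors, cAMP-induced genes, and subunits, anchors and inhibitors of protein kinase A. Of their 256 vehicle peaks, 164 were kept with EZH2i (64.1%), 207 with CBPi (80.9%) and 182 with FSK (71.1%), against 64.8%, 73.7% and 70.9% of all assigned vehicle peaks. Gained peaks were 7 of 169 with EZH2i (4.14%), 26 of 224 with CBPi (11.6%) and 29 of 211 with FSK (13.7%), against 6.5%, 10.9% and 14.5%. None of the 52 genes with a vehicle peak at a start or gene end was without one in a treated list, which is near the 1.64% to 3.61% lost over all genes with a vehicle start peak. *JDP2*, a bZIP repressor of AP-1, was the one gene that gained such a peak, with CBPi and with FSK. The most losses fell in *PDE4D*, a cAMP-degrading phosphodiesterase gene with 53 vehicle peaks, of which 25 were lost with EZH2i, 15 with CBPi and 26 with FSK. It gained 3 with CBPi and 5 with FSK. *PDE4B*, of the same family, lost 10 of 17 with EZH2i and 8 with CBPi, and gained 6 with FSK. Among the CREB family and coactivators, 42 of 48 vehicle peaks were kept with CBPi (87.5%), 37 with FSK (77.1%) and 31 with EZH2i (64.6%). The relatives of AP-1 kept a larger share with CBPi, 20 of 21 (95.2%). The remaining lists kept 76% to 80.5% with CBPi. *CREB5* gained 2 peaks with CBPi, as many as *KLF4*. *ATF7*, a CREB/ATF family member, lost 5 of its 8 vehicle peaks with EZH2i, 1 with CBPi and 4 with FSK, and *CREB5*, *PDE4B* and *SGK1* also lost 4 with FSK. With EZH2i 7 genes gained 1 peak each, among them the bZIP genes *ATF5* and *BATF2*, which also gained 1 each with CBPi.

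The lists held 61016 peaks with vehicle, 41086 with EZH2i, 47161 with CBPi and 51095 with FSK, so a longer list had more chance to hold a small peak. Of 8 adrenocortical marker genes, 7 had a peak at a start or gene end with vehicle and with FSK and 6 with each inhibitor. The receptor gene *MC2R* was the one missing with the inhibitors, and *HSD3B2* had none in any list. Markers of fibroblasts had such peaks at 2 of 5 genes, of endothelium at 1 of 4 and of chromaffin cells at 1 of 5 in every list. Immune markers had 0 of 5 with vehicle and FSK and 1 of 5 (*CD3E*) with each inhibitor. Their part in the results above was not tested.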

How the data were processed

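Each of 4 deposited peak lists joins 2 libraries, and how they were combined, filtered and called is not given in the sources used here. The submitters' processing notes name Bowtie2, Genrich, deepTools 2.0 and hg38. The deposited signal is the authors' area of significance under a peak, and the deposited −log10 of the summit p was read but not used for calls. Depth is unknown. Peaks were assigned with RefSeq gene positions of GRCh38.p14, which shares its coordinates with hg38. Starts and strands came from the RefSeq promoter table, which matched all 10 genes (18 starts); 9 pathway genes without a listed start used both gene ends. A start peak lies within 1 kb of a listed start. Peaks of all lists overlapping by 1 bp or more were merged into regions; a region's area is that of its largest peak in a list. No genome was used, so motifs were searched in promoter windows only.

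Work was done in Python 3.11.15 with numpy 2.4.6 and scipy 1.17.1. The overlap and assignment steps were tested on simulated peaks, and the rank steps were not. Named pathway genes were, per treated list, the 2 with the most lost and the 2 with the most gained peaks (ties taken in alphabetical order), and those whose start or end peak came or went. The genes and gene lists were chosen with earlier results of these data known. No test was run, because each group is 1 list. Alternatives changed the distance limit, start window, overlap rule, area minimum and list length, and left out 1 gene.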

Additional observations from a re-analysis of the deposited data

How the results depend on the processing

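Of 87 alternatives over 15 results, 78 left a share within the reported share's 95% interval or a count within 1.5 times the reported one, and 9 did not. The rule for counts is loose. The counts of genes with a kept start peak, 8 to 10 against 9, could hardly leave it. The EZH2i count by width, 15 of 27 against 20 by area, also passed it, so the tally says little about the counts. The intervals are wide: among the 78, the gained share with FSK was 9.52% for summits inside a gene or within 1 kb (17.9% reported), and that with EZH2i was 4% for summits within 50 kb (6.9% reported). The larger-area 50% of vehicle peaks, set against whole treated lists, held 25 at the 10 genes. All 25 were kept (100%) with EZH2i, CBPi and FSK. The larger-area 50% of each treated list was likewise set against the whole vehicle list. Its gained share was 0% with EZH2i (0 of 23), 7.69% with CBPi (2 of 26) and 4% with FSK (1 of 25). With every list shortened to its 41086 peaks of largest area, the kept share was 100% with EZH2i and CBPi (28 of 28) and 92.9% with FSK (26 of 28). The same shares over all assigned peaks were not computed for these settings, so these values cannot be read as particular to the 10 genes. The lost and gained peaks at these genes are thus mostly of small area, where unknown depth limits what can be compared. The comparisons of rank, and their versions by summed area and by width, were all chosen after seeing the data. By width the EZH2i count of higher regions, 15 of 27, was near the 53.1% of all common regions. With a start window of 2 kb all 10 genes had a start peak in every list. No paired analysis was possible because each list joins its 2 libraries, and for the same reason no replicate could be left out.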
